A study of Mus musculus with 9 samples.

Results

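The 9 genes described here carry dopamine, adenosine and melatonin signals in the retina: the dopamine receptors Drd2, Drd4 and Drd5, the adenosine receptors Adora1, Adora2a and Adora2b, the melatonin receptor Mtnr1a, and the enzymes Aanat and Ddc. They were taken by gene symbol from count tables of 21769 genes, in which all 9 were found. The data were counts of polyadenylated RNA from whole mouse retina in 3 groups of 3 libraries, with 2 retinae in each library. The first group was wild type mice at postnatal day 48, with retinae labelled normal. The second was rd10 mice at day 61, with retinae labelled degenerated. The third was GFP-expressing mice, with retinae labelled normal, whose age was read as day 42 because the labels give that day for a line written Gg13 and no other group lacks an age. The labels name neither the promoter that drives GFP nor the strain of any group, and give no hour of collection. Age coincided fully with genotype, so the contributions of age and genotype to a difference cannot be told apart. In rd10 mice the rods degenerate because of a mutated Pde6b, the gene of a rod phosphodiesterase subunit. The replicates were described as biological.

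Dopamine is released in the retina by a sparse class of amacrine cells in response to light and the circadian clock, and acts through D1-type receptors, which raise cyclic AMP, and D2-type receptors, which lower it. Melatonin is made in photoreceptors at night and adenosine accumulates in darkness, so that the 3 signals together set the retina for day or night. Drd4 is the D2-type receptor of photoreceptors, where it lowers cyclic AMP in the light, while Drd2 also acts as an autoreceptor on the dopaminergic cells. Adora1 lowers cyclic AMP and dampens transmitter release, and Adora2a and Adora2b raise cyclic AMP. Ddc makes dopamine from L-DOPA and serotonin from 5-hydroxytryptophan, and Aanat makes the precursor of melatonin from serotonin.

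Library totals ran from 9597635 to 12149448 counts. Levels are given as CPM, counts per 1000000 after scaling by TMM (a trimmed mean of log ratios between libraries), and differences as log2 fold changes from edgeR's quasi-likelihood test, called at a Benjamini-Hochberg adjusted p under 0.05 over the 14300 genes tested. In rd10 against wild type 28.4% of these genes were called, 14.5% higher and 13.9% lower, and the groups' libraries did not overlap for 50.5%. In rd10 against GFP 30.2% were called, 15.2% higher and 15.0% lower, and 48.2% did not overlap. The split depends on the scaling: with library totals alone 3604 genes were higher and 1077 lower in rd10 than in wild type, in place of 2067 and 1988, and the median log2 fold change of all genes was 0.25 in place of -0.03. Against GFP, library totals gave 4041 higher and 1055 lower in place of 2174 and 2138, with a median of 0.31 in place of -0.02. The rod marker list fell in 8 of 8 genes in rd10, whose retinae are labelled degenerated. Lens transcripts, which do not belong to retina, summed to over 1000 CPM in wild type 2, wild type 3, rd10 2 and GFP 1 and to at most 32.6 CPM in the other 5 libraries.

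Drd4 was lower in rd10 than in both normal groups, and Adora1 was higher. These were 2 of the 6 members with enough counts to be tested, beside 28.4% of all genes called in rd10 against wild type and 30.2% against GFP. The other 4, Drd2, Drd5, Adora2b and Ddc, did not pass in either comparison. Adora2a, Mtnr1a and Aanat had too few counts to be tested. The median log2 fold change of the 6 was 0.41 against wild type, beside -0.03 for all genes, and 0.47 against GFP, beside -0.02. The comparisons share the rd10 libraries, so their values stand side by side and are not independent of each other.

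**Figure D1:**
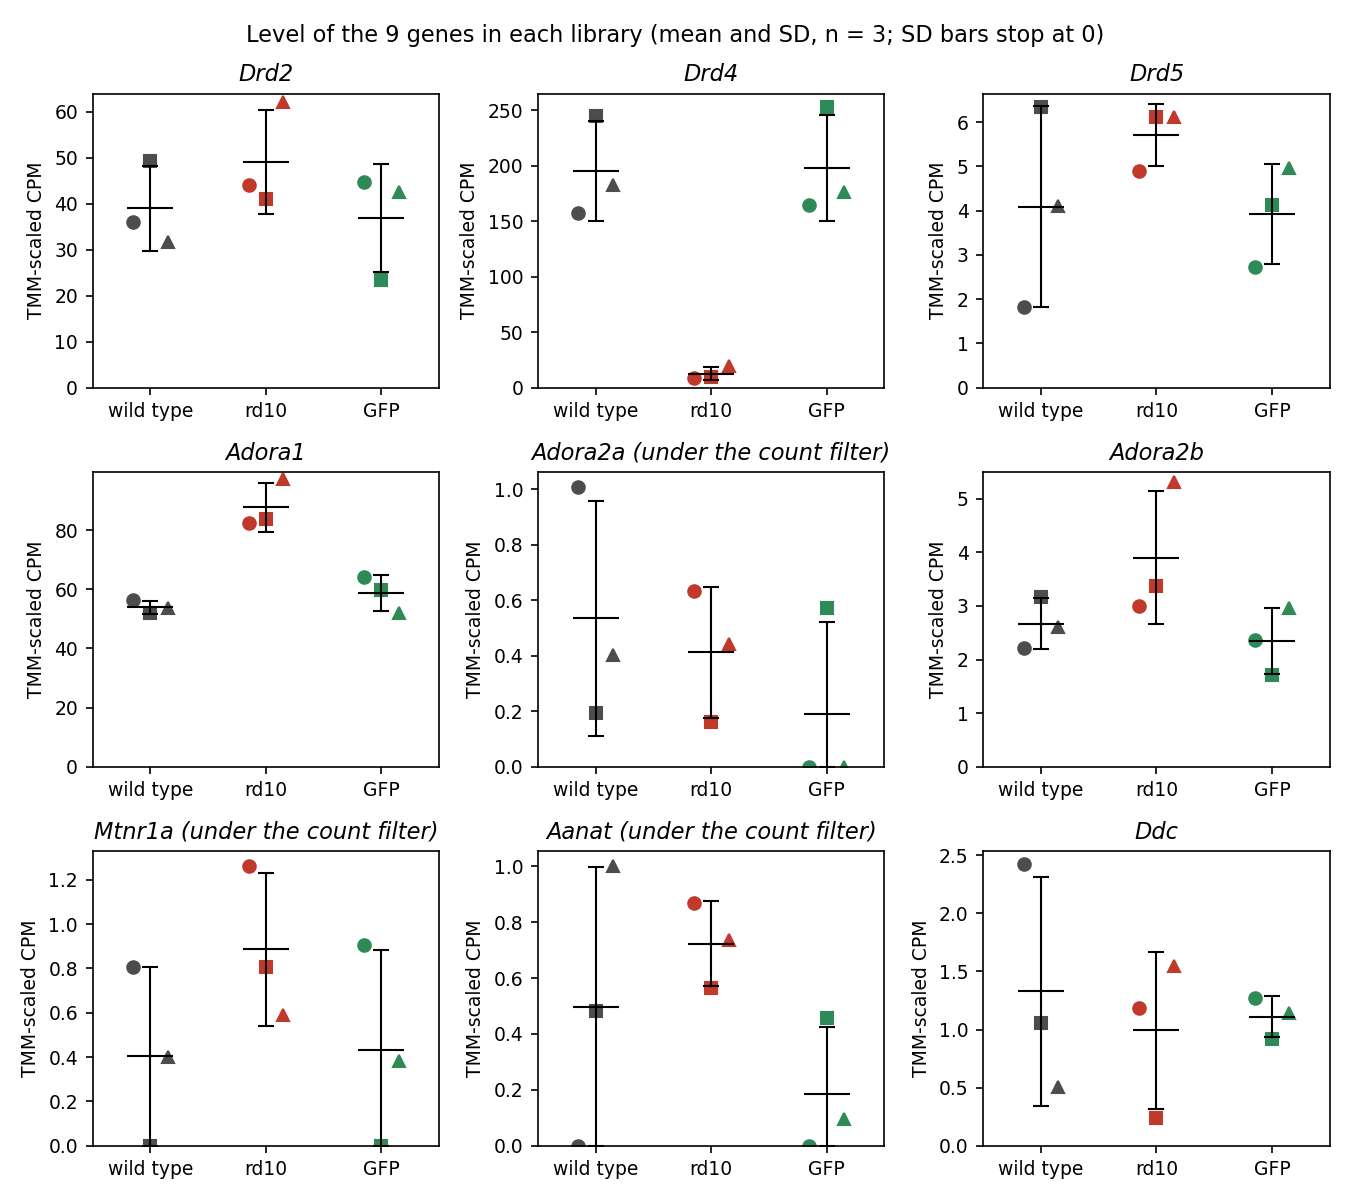
TMM-scaled CPM (vertical axes, each from 0) of the 9 genes in wild type, rd10 and GFP retina; symbols are single libraries (circle, square and triangle for libraries 1, 2 and 3), with the mean as a wide line and the SD as a bar (n = 3). Drd4 lay between 8.77 and 19.5 CPM in rd10 and between 157 and 253 CPM in the 6 normal libraries, and Adora1 between 82.4 and 97.2 CPM in rd10 and between 51.9 and 64.2 CPM in the normal libraries.

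The promoters of the 2 genes called are shown because their transcripts moved in opposite directions in the same libraries. The windows are RefSeq's on GRCm38.p6 and run from 250 bases before the transcription start to 30 bases after it. Drd4 lies on the plus strand (chr7:141291768-141292047), and capitals mark a match to TGCTGA, the core letters bound by the rod factor NRL, which is read here on the opposite strand. Adora1 lies on the minus strand with 2 starts in RefSeq (chr1:134235428-134235707 and chr1:134234827-134235106), and its windows held no match.
Drd4: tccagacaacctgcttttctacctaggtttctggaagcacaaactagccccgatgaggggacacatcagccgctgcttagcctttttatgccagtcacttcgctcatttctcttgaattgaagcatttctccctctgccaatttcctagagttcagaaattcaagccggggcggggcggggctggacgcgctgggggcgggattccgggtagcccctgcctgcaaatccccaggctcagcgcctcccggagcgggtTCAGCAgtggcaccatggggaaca
Adora1, the first start: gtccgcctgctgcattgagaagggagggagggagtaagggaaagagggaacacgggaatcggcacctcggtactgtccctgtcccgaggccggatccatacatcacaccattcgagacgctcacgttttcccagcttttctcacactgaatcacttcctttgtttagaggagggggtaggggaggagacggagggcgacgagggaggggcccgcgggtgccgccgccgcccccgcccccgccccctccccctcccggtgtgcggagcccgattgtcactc
Adora1, the second start: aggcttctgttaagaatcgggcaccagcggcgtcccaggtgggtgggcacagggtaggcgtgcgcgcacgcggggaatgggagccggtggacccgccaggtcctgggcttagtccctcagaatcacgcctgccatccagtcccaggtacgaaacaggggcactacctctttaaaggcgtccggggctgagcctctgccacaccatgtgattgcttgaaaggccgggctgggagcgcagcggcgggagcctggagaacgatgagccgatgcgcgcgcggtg
The Drd4 match lay 7 bases after the start. TGCTGA in either orientation was present in 19.5% of the 32851 promoter windows of 300 bases, so a single match is common. Among the 7 members with a promoter entry, all but Adora2a and Aanat, the same letters were found in Mtnr1a, 114 bases before the start, and at the second of 2 starts of Ddc, 60 bases before it. Drd1, listed as Drd1a in the counts and no member, held them 71 bases before its first start, and its transcript was higher in rd10 (log2 change 0.86 against wild type). A link between these letters and the differences was not tested. Besides TGCTGA, 3 motifs were searched on both strands, and no motif of the 4 contains another. The letters TAATCC, bound by photoreceptor homeodomain factors such as CRX, were in no member and in 7.06% of all windows. The cAMP response element, TGACGTCA, was in no member and in 1.79% of all windows. The E-box of clock factors, CACGTG, was found in Mtnr1a, 207 bases before the start, and in 7.15% of all windows. The windows of Drd2, Drd5, Adora1 and Adora2b held none of the 4 motifs. The Drd4 window had a GC content of 58.0% and 15 CpG dinucleotides, and the Adora1 windows had 66.0% each with 26 and 24, beside medians of 52.7% and 7 over all windows.

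Drd4 was the most strongly changed member. The wild type libraries held 1556, 2542 and 1818 Drd4 counts, the rd10 libraries 111, 124 and 264, and the GFP libraries 1817, 2204 and 1845. These were 157, 245 and 182 CPM in wild type, 8.77, 9.98 and 19.5 CPM in rd10, and 165, 253 and 176 CPM in GFP. Every rd10 library was below every normal library, and rd10 3 was the highest of the rd10 libraries. The rd10 mean was 12.7 ± 5.86 CPM and the wild type mean 195 ± 45.0 CPM (SD, n = 3 each), a 15.2-fold lower level with a log2 change of -3.93 (SE 0.33, 95% interval -4.67 to -3.19, adjusted p = 1.51e-05). Against the GFP mean of 198 ± 47.8 CPM it was 15.5-fold lower, with a log2 change of -3.95 (SE 0.34, adjusted p = 1.39e-05). The 16 alternative settings gave -4.35 to -3.48 against wild type and -4.38 to -3.63 against GFP, and each kept the call. In the deposited files Drd4 spans 148477905 to 148480900 on chromosome 7 (mm9, plus strand) and overlaps no other listed gene.

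The transcripts of rods moved with Drd4. The 8 rod markers all fell in rd10 and none was at 0. Their summed level was 74776 to 99803 CPM in wild type, 80643 to 90447 CPM in GFP and 803 to 1469 CPM in rd10. In a bulk sample, fewer cells of a type and less RNA per cell cannot be told apart. The log2 change of Drd4 against wild type, -3.93, lay between those of the transducin subunit Gnb1 (-3.75) and the rod arrestin Sag (-4.81), the 2 rod markers that fell least. Relative to the summed rod markers, Drd4 stood at 2.07, 2.45 and 2.44 CPM per 1000 CPM of rod transcripts in the wild type libraries, 10.9, 8.51 and 13.3 in those of rd10, and 2.04, 3.08 and 1.94 in those of GFP. The rd10 values were all above the normal ones, by 4.64-fold on average against wild type and 4.66-fold against GFP. The exact two-sided permutation test over 3 and 3 libraries gave p = 0.1 in each case, which is the smallest p it can give. Drd4 and the rod sum each separated the groups already, and the rod sum fell by far more, so this test adds nothing to those values. This ratio was chosen after the values had been seen.

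The cone markers did not follow Drd4. Of 6 cone markers none was higher and 1 was lower in rd10 than in wild type, none was at 0, and their summed level was 1467 to 1886 CPM in the wild type libraries, 1290 to 1412 CPM in rd10 and 1236 to 1657 CPM in GFP. Drd4 fell relative to them, from 96.7 to 157 CPM per 1000 CPM of cone transcripts in wild type to 6.46 to 15.1 in rd10, with 128 to 152 in GFP (exact two-sided permutation test, p = 0.1, the smallest possible). Drd4 alone already separated the groups and the cone sums differed far less, so this test adds nothing to the Drd4 call. Like the rod ratio, the cone ratio was chosen after the values had been seen. The part that changes in the rod and cone populations play in the Drd4 difference was not tested.

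**Figure D2:**
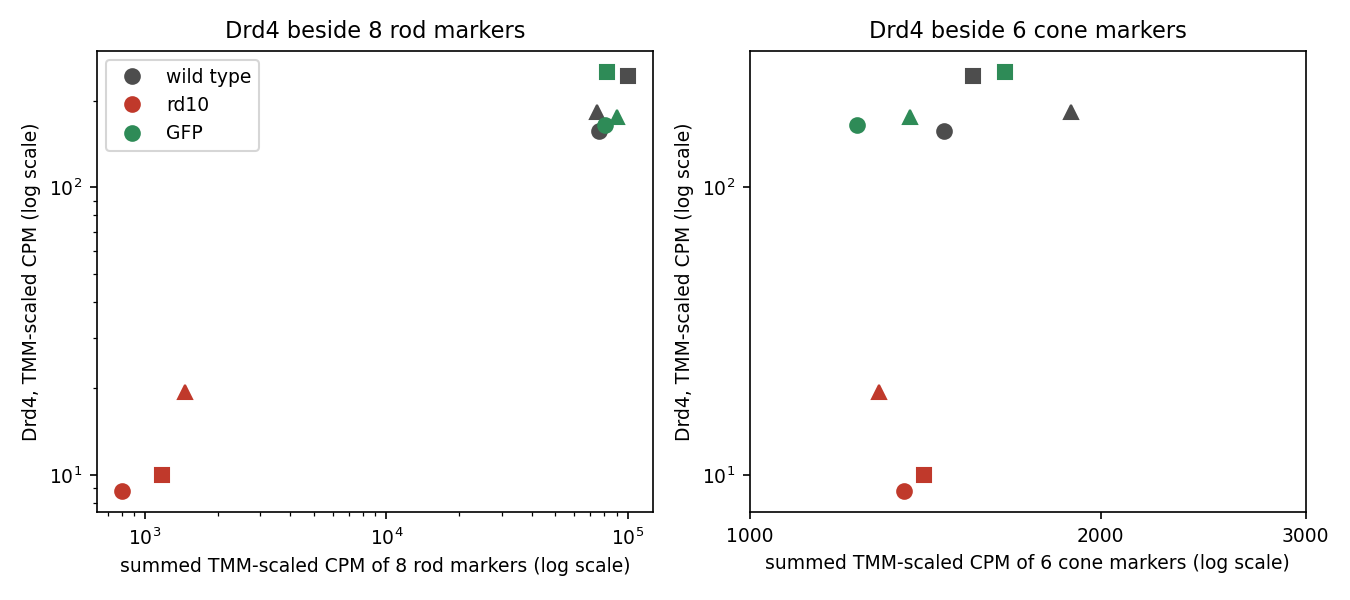
Drd4 (vertical axes, TMM-scaled CPM, log scale) against the summed TMM-scaled CPM of 8 rod markers (left) and 6 cone markers (right; log scales); each point is a library, coloured by group and shaped by library number. The rd10 libraries sit at 803 to 1469 CPM of rod transcripts, far left of the normal ones, but among the normal libraries on the cone axis.

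Drd2 was measured at a moderate level in each group. It stood at 36.1, 49.3 and 31.6 CPM in wild type, 44.2, 41.0 and 62.0 CPM in rd10, and 44.8, 23.5 and 42.6 CPM in GFP. The 3 groups overlapped, with the highest value in rd10 3 and the lowest in GFP 2. The rd10 mean of 49.1 ± 11.4 CPM differed from the wild type mean of 39.0 ± 9.19 CPM by a log2 change of 0.33 (SE 0.27, 95% interval -0.27 to 0.93, adjusted p = 0.379). Against the GFP mean of 37.0 ± 11.7 CPM the change was 0.41 (SE 0.27, adjusted p = 0.274). With library totals alone it was 0.73 against GFP and passed (adjusted p = 0.0496, beside 0.31 for the median gene).

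Drd5, a D1-type receptor, was low in all groups. It stood at 1.82, 6.35 and 4.11 CPM in wild type, 4.90, 6.12 and 6.12 CPM in rd10, and 2.72, 4.13 and 4.96 CPM in GFP. The rd10 libraries were the more alike, and both the lowest and the highest value came from wild type. The log2 change was 0.48 against wild type (95% interval -0.44 to 1.40, adjusted p = 0.409) and 0.54 against GFP (adjusted p = 0.342). The change against wild type moved with single libraries, to 0.16 without wild type 1 and 0.96 without wild type 2, and was 1.59 without the 4 lens-bearing libraries, and none of these passed (adjusted p = 0.766, adjusted p = 0.142 and adjusted p = 0.194).

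Together with Drd1a, the other D1-type receptor and no member of the set, the dopamine receptors can be set side by side as CPM per kilobase of exon. Drd4 made up 68.3% to 74.6% of the summed receptor level per length in wild type and 66.6% to 80.1% in GFP, but 7.71% to 14.0% in rd10. Drd2 made up 14.2% to 17.2% in wild type, 8.19% to 20.1% in GFP and 42.1% to 48.9% in rd10. Drd5 held 0.702% to 1.71%, 0.985% to 1.67% and 3.82% to 5.07%, and Drd1a 7.55% to 13.7%, 10.5% to 14.0% and 33.2% to 45.8%, in the same order. The shares in rd10 did not overlap those of the normal groups for any of the 4 receptors. The shares of a library add up to a whole, so a fall in Drd4 raises the others even at unchanged levels. In CPM, Drd2 and Drd5 overlapped between the groups and were not called, so their shares are no separate result. The summed receptor level per length was 82.1 to 118 in wild type, 87.7 to 113 in GFP and 38.2 to 49.8 in rd10. Drd1a itself rose from 34.1 to 61.8 CPM in rd10, with a log2 change of 0.86 against wild type (adjusted p = 0.00429) and 0.55 against GFP (adjusted p = 0.0293). The call against GFP was lost when any 1 rd10 library (0.50 to 0.59) or GFP 1 (0.48) was left out, and with the replicate number as a block (adjusted p = 0.0528). Without the 4 lens-bearing libraries, which leaves 1 wild type library, the Drd1a change against wild type was 0.64. The shares were computed after the values had been seen and describe transcript levels over the retina, not levels in 1 cell type. The counts of Drd3, the remaining D2-type receptor, were 0 in all 9 libraries.

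**Figure D3:**
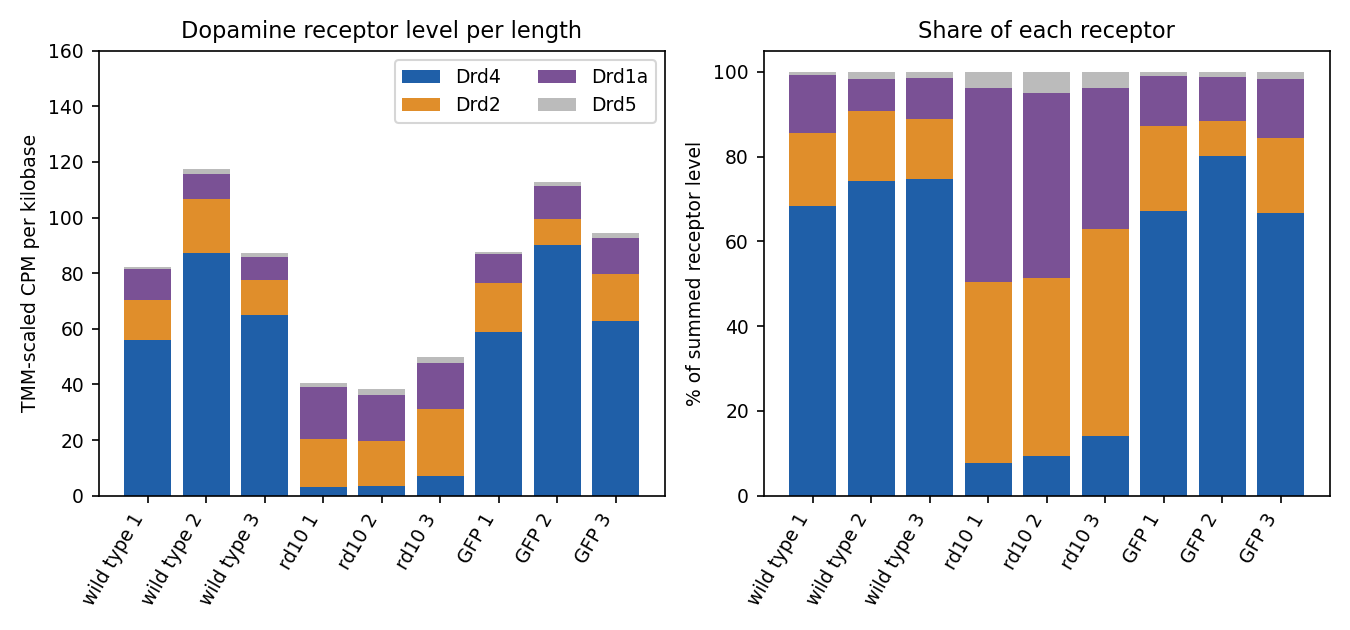
Stacked level of 4 dopamine receptor transcripts in each library, as TMM-scaled CPM per kilobase of exon (left) and as percent of the summed level (right). Drd4 takes most of each normal bar, between 66.6% and 80.1%, and 7.71% to 14.0% of the rd10 bars, where the summed level is 38.2 to 49.8.

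Ddc, the decarboxylase of dopamine and serotonin synthesis, was near the lower limit of measurement. The wild type libraries held 24, 11 and 5 counts, the rd10 libraries 15, 3 and 21, and the GFP libraries 14, 8 and 12, or at most 2.42 CPM. The groups overlapped fully, and replicate libraries differed by more than the group means did. The log2 change was -0.41 against wild type (SE 0.70, 95% interval -1.96 to 1.14, adjusted p = 0.685) and -0.16 against GFP (adjusted p = 0.878). Its sign changed with single libraries: without wild type 1 it was 0.38 against wild type, and without rd10 2 it was 0.07 against wild type and 0.31 against GFP. Tyrosine hydroxylase (Th), the rate-limiting enzyme upstream of Ddc, stood at 6.41 ± 0.784 CPM in wild type, 4.24 ± 0.964 in rd10 and 6.36 ± 1.19 in GFP. The rd10 libraries did not overlap either normal group, but the log2 changes of -0.60 and -0.58 did not pass (adjusted p = 0.131 and adjusted p = 0.134). The vesicular monoamine transporter Slc18a2 had log2 changes of 0.04 and -0.05 (adjusted p = 0.918 and adjusted p = 0.888). The dopamine transporter Slc6a3 had 2 counts in all wild type libraries, 14 in rd10 and 5 in GFP. Th, Slc18a2 and Slc6a3 mark the dopaminergic amacrine cells, and none of the 2 tested passed.

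Adora1 was the member that rose. The wild type libraries held 557, 539 and 534 Adora1 counts, the rd10 libraries 1043, 1039 and 1318, and the GFP libraries 708, 521 and 547. These were 56.3, 51.9 and 53.5 CPM in wild type, 82.4, 83.6 and 97.2 CPM in rd10, and 64.2, 59.7 and 52.2 CPM in GFP. All rd10 libraries were above all normal libraries, and the wild type libraries differed little from each other. The rd10 mean was 87.8 ± 8.23 CPM and the wild type mean 53.9 ± 2.21 CPM (SD, n = 3 each), a 1.63-fold rise with a log2 change of 0.70 (SE 0.14, 95% interval 0.40 to 1.01, adjusted p = 0.00465). Against the GFP mean of 58.7 ± 6.09 CPM the rise was 1.50-fold, with a log2 change of 0.58 (SE 0.14, 95% interval 0.27 to 0.89, adjusted p = 0.0111). Without the 4 libraries that hold lens transcripts, which leaves 1 wild type, 2 rd10 and 2 GFP libraries, the changes were 0.67 (adjusted p = 0.267) and 0.68 (adjusted p = 0.0866) and no longer passed. Without GFP 3 alone the change against GFP was 0.51 (adjusted p = 0.0503). With library totals alone the changes were 0.99 and 0.90, beside 0.25 and 0.31 for the median gene.

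Transcripts of inner retinal cells and glia were also higher in the libraries in which Adora1 was higher. In rd10 against wild type 8 of 9 amacrine, 4 of 6 ganglion cell, 3 of 5 ON bipolar, 5 of 5 Müller glia and 7 of 7 microglia markers rose, and no marker was at 0 in all libraries. The summed amacrine markers were 1506 to 1548 CPM in wild type, 2260 to 2368 in rd10 and 1500 to 1662 in GFP, with a median log2 change of 0.73 per marker. The ganglion cell markers summed to 780 to 882 CPM, 1168 to 1343 CPM and 723 to 892 CPM in the same order, with a median of 0.84. The ON bipolar markers summed to 805 to 1103 CPM, 1416 to 1857 CPM and 917 to 1142 CPM, with a median of 1.11. The Müller glia markers summed to 2919 to 4103, 6155 to 6691 and 3708 to 4532 CPM, with a median of 1.05, and the microglia markers to 37.8 to 51.1, 124 to 139 and 33.1 to 40.2 CPM, with a median of 1.61. The log2 change of Adora1 against wild type was 0.70. Its 95% interval, 0.40 to 1.01, held the medians of the amacrine and ganglion cell markers. It lay below those of the ON bipolar, Müller glia and microglia markers, and a difference from any of these medians was not tested. The part of these cell types in the Adora1 difference was not tested. In the deposited files Adora1 spans 136095799 to 136132008 on chromosome 1 (mm9, minus strand) and overlaps Mybph on the other strand, so reads of the 2 genes cannot be told apart if strand was not used in counting. Mybph had 0 to 14 counts per library.

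Adora2b stood at 2.22, 3.18 and 2.61 CPM in wild type, 3.00, 3.38 and 5.31 CPM in rd10, and 2.36, 1.72 and 2.96 CPM in GFP. The rd10 libraries were all above the GFP libraries but overlapped the wild type, and rd10 3 stood above the other libraries. The log2 change was 0.55 against wild type (SE 0.37, 95% interval -0.26 to 1.35, adjusted p = 0.280) and 0.73 against GFP (SE 0.37, adjusted p = 0.153). With library totals alone it was 1.05 against GFP and passed (adjusted p = 0.0443). Adora2a was barely measured: wild type libraries held 10, 2 and 4 counts, rd10 libraries 8, 2 and 6, and GFP libraries 0, 5 and 0. The rd10 to wild type ratio of the summed counts per library size was 0.783 (exact 95% interval 0.367 to 1.67, counting error only). The remaining adenosine receptor, Adora3, had 2 counts in all wild type libraries, 11 in rd10 and 0 in GFP and was left out of the shares. Adora1 held 83.4% to 86.4% of the summed level per length of Adora1, Adora2a and Adora2b in wild type, 84.8% to 88.6% in rd10 and 84.9% to 90.2% in GFP. These shares overlapped between the groups, unlike those of the dopamine receptors, and a difference between the 2 families was not tested.

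**Figure D4:**
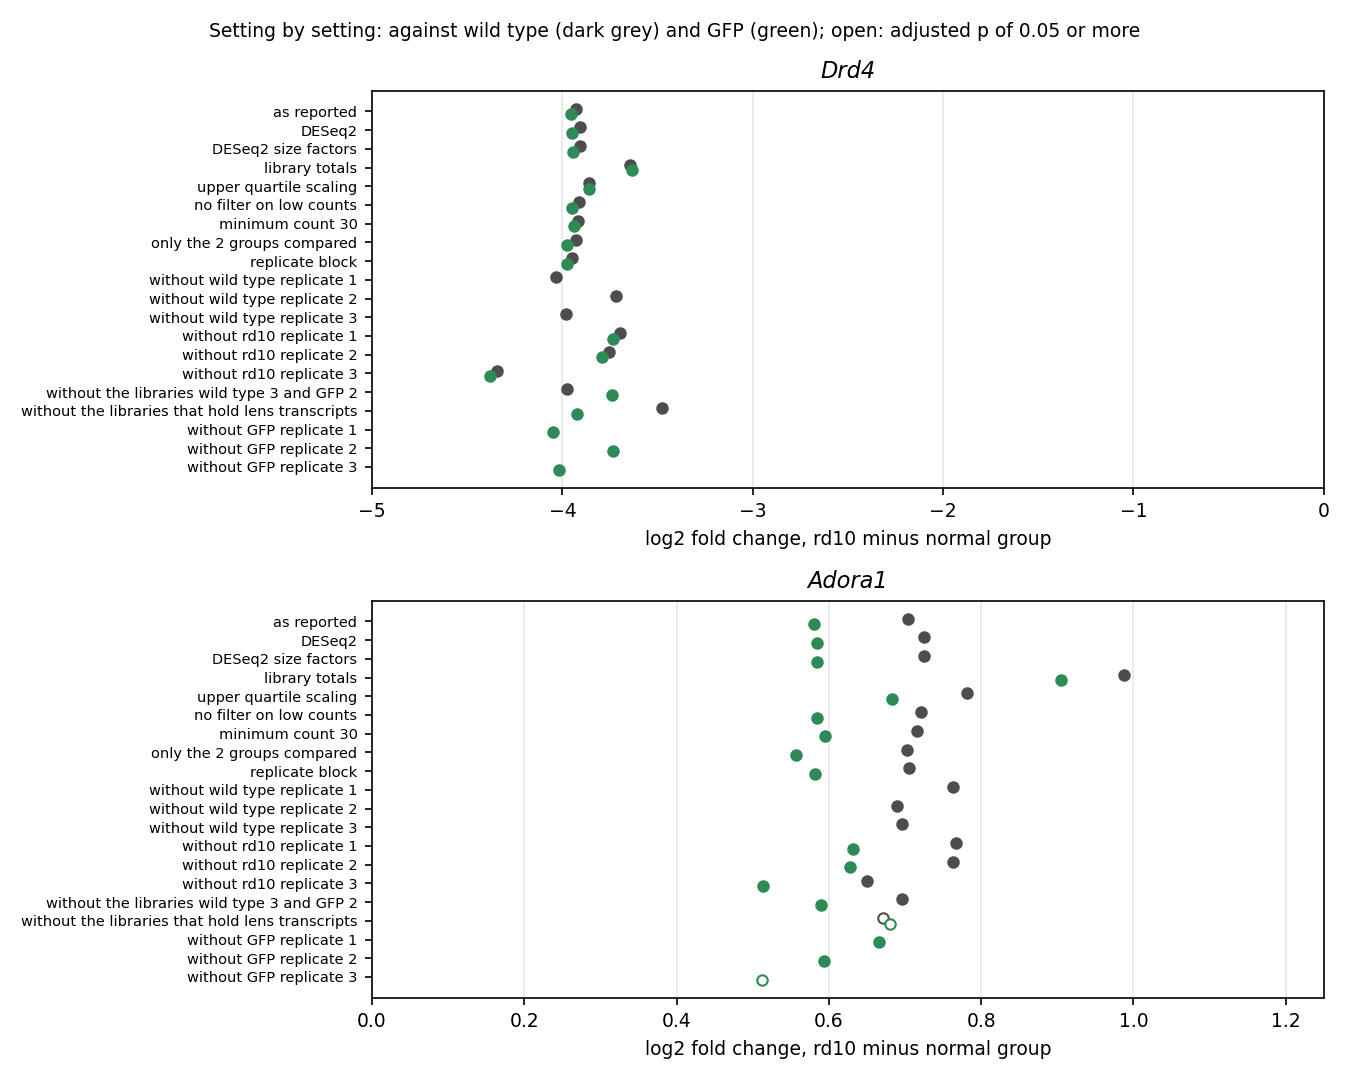
Log2 fold change of Drd4 (top) and Adora1 (bottom) in rd10 minus wild type (dark grey) or GFP (green) under each processing setting; open circles did not pass an adjusted p of 0.05. Drd4 stayed between -4.38 and -3.48 and passed throughout, while Adora1 lost its call without the lens-bearing libraries and, against GFP, without GFP 3.

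The melatonin members had few counts. Mtnr1a, the melatonin receptor that lowers cyclic AMP, had 8, 0 and 4 counts in the wild type libraries, 16, 10 and 8 in those of rd10, and 10, 0 and 4 in those of GFP. The rd10 libraries overlapped both normal groups, each of which had 1 library with no count. The ratio of rd10 to wild type was 2.22 (exact 95% interval 1.12 to 4.71) and that of rd10 to GFP 1.90 (0.994 to 3.83). Aanat had 0, 5 and 10 counts in the wild type libraries, 11, 7 and 10 in those of rd10, and 0, 4 and 1 in those of GFP. The rd10 libraries lay above the GFP libraries and overlapped the wild type. The ratio was 1.46 (0.755 to 2.95) against wild type and 4.38 (1.67 to 14.5) against GFP. These intervals cover counting error only, while replicate libraries differed by more than counting error. In a fit without the count filter, edgeR's adjusted p was 0.483 and 0.527 for Mtnr1a, 0.739 and 0.241 for Aanat and 0.861 and 0.519 for Adora2a, against wild type and GFP in turn. No difference was called in these 3 genes. The receptor Mtnr1b had 2 counts in all, both in GFP 2.

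Aanat and Mtnr1a are known to vary with the time of day, and the labels give no hour of collection. Clock transcripts, looked at after the values had been seen, differed between the groups. Arntl, the positive arm of the clock, fell with a log2 change of -1.12 in rd10 against wild type (adjusted p = 0.00039), and the negative-arm gene Per2 and the clock output gene Dbp rose by 0.91 (adjusted p = 0.0249) and 0.68 (adjusted p = 0.0315). Nr1d1 changed by 0.46 (adjusted p = 0.0668) and Per1 by 0.01 (adjusted p = 0.993). Against GFP the changes of Arntl, Per2 and Dbp were -1.13, 0.58 and 0.73, and that of Per2 did not pass (adjusted p = 0.106). The part of collection time in the levels of the 9 genes was not tested.

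Per kilobase of exon, the order of the 9 genes differed between normal and rd10 retina. In wild type the mean levels per length were 69.6 CPM per kilobase for Drd4, 15.3 for Drd2, 9.31 for Adora1, 1.45 for Adora2b, 1.30 for Drd5, 0.634 for Ddc, 0.366 for Aanat, 0.242 for Mtnr1a and 0.175 for Adora2a. The libraries of Drd4, Drd2, Adora1 and Adora2b did not overlap from 1 neighbour to the next, while those of Adora2b and all lower genes overlapped with their neighbours. In rd10 Drd2 came first with 19.3 CPM per kilobase (16.1 to 24.4), then Adora1 with 15.2 (14.2 to 16.8) and Drd4 with 4.55 (3.13 to 6.96). The ranges of Drd2 and Adora1 overlapped there, and that of Drd4 lay below both. Adora2b and Drd5 followed with 2.11 and 1.81, and the other 4 genes were at 0.135 to 0.535. In GFP the order of the first 5 was that of wild type, with overlapping ranges of Drd2 (9.22 to 17.6) and Adora1 (9.02 to 11.1).

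The 2 normal groups were alike in the 6 tested members within wide intervals. None of the 6 tested members passed in GFP against wild type, where edgeR called 0.0% of all genes, and the libraries overlapped for all 6, where 3.99% of all genes did not overlap. At an unadjusted p under 0.05 it gave 214 genes, 1.5%, of which none was a member, and DESeq2 called 2 genes, neither of them a member. The log2 change was 0.02 for Drd4 (95% interval -0.63 to 0.67), 0.12 for Adora1 (-0.18 to 0.43) and -0.07 for Drd2 (-0.68 to 0.53). It was -0.06 for Drd5, -0.18 for Adora2b and -0.25 for Ddc. In Adora1 the interval leaves out changes of 1.5-fold in either direction, but in Drd4 and Drd2 it does not. For the untested members the ratio of summed counts in GFP to wild type was 0.313 for Adora2a (exact 95% interval 0.0896 to 0.894) and 0.334 for Aanat (0.0949 to 0.966). It was 1.17 for Mtnr1a (0.501 to 2.76). These intervals cover counting error only, and the fit without the count filter called none of these genes.

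Around the members, 42 further genes of the 3 pathways were found in the files, and 33 were tested. In rd10 against wild type 5 rose, 4 fell and 24 did not pass, or 27.3% called beside 28.4% of all genes. In rd10 against GFP 8 rose and 4 fell, 36.4% called beside 30.2%. The genes counted as higher include some that passed the count filter only through their rd10 libraries, such as Acpp and Enpp1, so these shares are a description only. With any 1 library left out 3 to 6 rose against wild type and 2 to 5 against GFP, and without the 4 lens-bearing libraries 0 and 2 rose, with Nt5e the only gene still lower than in wild type. Their median log2 change was 0.36 and 0.30, beside -0.03 and -0.02 for all genes. Among 13 dopamine genes Drd1a alone passed against wild type, and among 7 melatonin genes only Adcy1, an adenylyl cyclase of photoreceptors, which fell by 1.41 on the log2 scale (adjusted p = 0.00793).

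The adenosine list held the largest changes among these neighbours, with 4 genes higher and 3 lower of 13 against wild type. That was 53.8% called, beside 28.4% of all genes, in a list chosen with earlier results of these data known. Acpp and Enpp1, both called higher, passed the count filter only through their rd10 libraries. Acpp had 13 to 25 counts there and 0 to 4 in the normal libraries, and Enpp1 had 31 to 33 and 8 to 12. A gene that enters this way can hardly be called lower, so the share of 53.8% is a description only. Nt5e, the ecto-enzyme CD73 that makes adenosine from AMP outside the cell, stood at a mean of 195 CPM in wild type and 5.83 CPM in rd10, a log2 change of -5.06. Its libraries were at 215, 200 and 170 CPM in wild type, 5.85, 5.15 and 6.49 CPM in rd10 and 222, 163 and 228 CPM in GFP, so that the rd10 libraries were far below the others, as were those of the rod markers. The nucleoside transporter Slc29a2 fell by 1.64 on the log2 scale, and its relative Slc29a1 rose by 0.83 (adjusted p = 0.00768). The nucleotide hydrolases Entpd2 and Enpp1 rose by 0.89 and 1.43 (adjusted p = 0.0232 and adjusted p = 0.0218), and each lost the call when any 1 rd10 library or wild type 2 was left out, as did Enpp1 without wild type 1. Acpp, an acid phosphatase that also cleaves AMP, had 2 counts in wild type, all in wild type 1, and 57 in rd10, a ratio of 22.3 (exact 95% interval 5.90 to 189), and its fitted log2 change of 4.26 became 7.06 without wild type 1. Ahcy, which splits S-adenosylhomocysteine into adenosine and homocysteine, fell by 0.49 (adjusted p = 0.0495), a call kept in 4 of 16 alternatives. It was lost without wild type 2 (-0.30), wild type 3 (-0.55) or any 1 rd10 library (-0.54 to -0.42). Against GFP the same 7 genes passed in the same directions. There Enpp1 and Acpp lost the call without any 1 library (1.29 to 1.46 and 1.96 to 2.85), and Ahcy without any 1 except GFP 2.

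**Figure D5:**
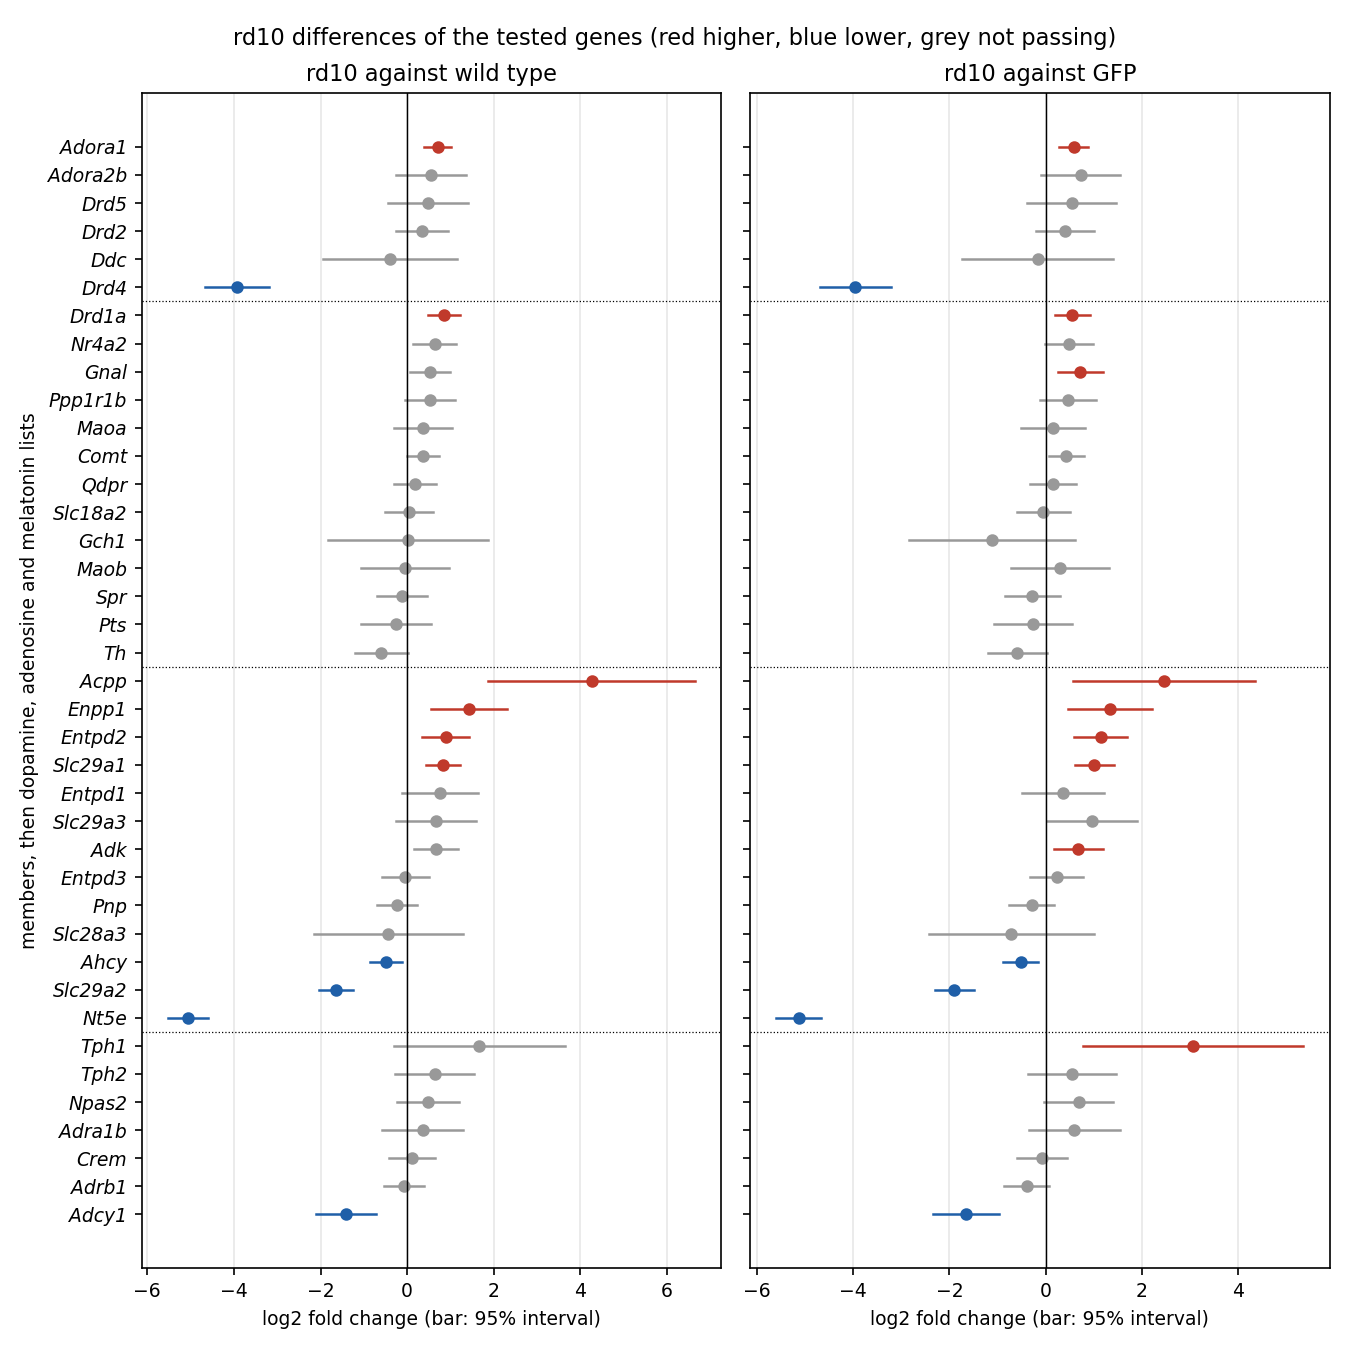
Log2 fold change (horizontal axes, points) with its 95% interval (bars) of the 6 tested members and the 33 tested genes of the dopamine, adenosine and melatonin lists, in rd10 against wild type (left) and GFP (right); red is higher, blue lower and grey not passing. Drd4 and Nt5e, at -3.93 and -5.06 against wild type, lie far left of the other genes.

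The genes whose levels followed each member most closely were found by Pearson's r of log2 CPM over the 9 libraries, among 11018 genes with a mean of at least 5 CPM. These values are given as a description of 9 libraries and hold both the differences between groups and the spread within them. Picked as the highest of 11018 genes, r can be high through that choice alone, and the height it gives was not computed. For Ddc, with 3 to 24 counts per library, r also holds counting error. For Drd4 they were Mapre3 (r = 0.998), Ramp3 (r = 0.994) and Csda (r = 0.994), with log2 changes against wild type of -0.91, -2.80 and -3.78. For Adora1 they were Tox3 (r = 0.995), Cpxm1 (r = 0.989) and Ttc28 (r = 0.988), with log2 changes of 1.08, 0.70 and 0.84. For Drd2 the nearest were Ergic1, Abcc4 and Clip2 (r from 0.984 to 0.988). For Drd5 they were Mtch1 (r = 0.978), Csrp2 (r = 0.976) and Kcne1l (r = 0.929), and for Adora2b B4galnt4 (r = 0.945), Fam102a (r = 0.943) and Meis2 (r = 0.941). For Ddc they were Saal1 (r = 0.931), Mtm1 (r = 0.916) and Arhgap28 (r = 0.877).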

How the data were processed

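Polyadenylated RNA of whole retina was sequenced in 9 libraries, 3 per group. The deposited values were read as raw counts per gene, since all were whole numbers with totals that differed between libraries. The authors had counted reads on mm9, per the submitters' processing notes. The annotation, the aligner, the counter, and how strand and multiply matching reads were treated are not given in the sources used here. Positions are those of the deposited files with 1 added to each start. The 9 genes and the lists were chosen with earlier results of these data known.

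In edgeR 4.0.16 (R 4.3.3), filterByExpr kept 14300 of 21769 genes (minimum count 10, minimum total 15), and 1 mean per group was fitted to all libraries with TMM scaling. Quasi-likelihood F-tests were two-sided, with Benjamini-Hochberg adjustment over all genes tested, and the procedure was tested on simulated data. Replicates differed by 13.0 to 76.1 in chi-square per degree of freedom, so none was a repeat of another. After TMM scaling 1 CPM stood for 8.72 to 13.6 counts. Values per length used the exons of GENCODE M21 protein-coding transcripts on GRCm38, a build other than that of the counts. Count ratios have exact 95% intervals that cover counting error only.

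Named were all 9 members, 4 fixed dopamine genes (Th, Slc6a3, Slc18a2 and Drd1a), list genes called in rd10 against wild type and the 3 genes nearest to each tested member. Of 43 list entries 42 were matched. Drd3, Adora3, Mtnr1b, Mybph and the clock genes were added after their values were seen. Alternatives were DESeq2 1.42.0, other scalings and filters, only the groups compared, a replicate block, each replicate left out, and libraries that stood apart left out; the value of 1000 CPM that marks lens-bearing libraries was set after the values were seen. Same-numbered replicates did not deviate together, so the numbers were not treated as pairs.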

Additional observations from a re-analysis of the deposited data

How the results depend on the processing

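In rd10 against wild type, Drd4 kept its direction and its call in all 16 alternatives, and Adora1 in 15. Without the lens-bearing libraries, 0 members, 0 pathway genes and 86 genes in all were higher and 1 pathway gene and 457 genes lower; fewer libraries enter that fit, and the cause was not tested. The pathway count of 5 higher became 10 with library totals, 8 with upper quartile scaling and 3 with a minimum count of 30. Library totals gave 3604 genes higher and 1077 lower. Leaving out 1 library gave 3 to 6 pathway genes higher, 1269 to 1809 genes higher and 1186 to 1711 lower in all.

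In rd10 against GFP, Drd4 kept its call in all 16 alternatives and Adora1 in 14. Members higher numbered 3 with library totals, 0 without the lens-bearing libraries and 0 to 1 with 1 library left out. Pathway genes higher were 13 with library totals, 5 with a minimum count of 30, 5 with the replicate block, 5 without wild type 3 and GFP 2, 2 without the lens-bearing libraries and 2 to 5 with 1 library left out. All genes higher and lower were 4041 and 1055 with library totals, 876 and 970 without the lens-bearing libraries, and 1297 to 2175 and 1305 to 2097 with 1 library left out. Ddc turned to 0.15 with library totals and 0.40 without the lens-bearing libraries. In GFP against wild type DESeq2 called 2 genes lower, and leaving out 1 library gave 0 to 4 higher.

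Changes that had not passed turned sign as follows. Slc18a2 in rd10 against wild type was -0.27 without the lens-bearing libraries, and against GFP 0.28 with library totals, 0.051 with upper quartile scaling and 0.22 without wild type 3 and GFP 2. In GFP against wild type, Drd2 was 0.034 and Drd4 -0.24 without wild type 3 and GFP 2. Drd4 was -0.013 with library totals and -0.0012 with upper quartile scaling, and Drd5, Adora1 and Adora2b were 1.32, -0.0093 and 0.081 without the lens-bearing libraries. With 1 library left out, ranges that crossed 0 against wild type were -0.85 to 0.38 for Ddc and -0.081 to 0.24 for Slc18a2, and against GFP -0.62 to 0.31 and -0.19 to 0.22. In GFP against wild type they were -0.22 to 0.19 (Drd2), -0.17 to 0.22 (Drd4), -0.39 to 0.41 (Drd5), -0.37 to 0.013 (Adora2b) and -0.63 to 0.53 (Ddc).

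With the replicate block, Drd4 changed by -3.95 and Adora1 by 0.70 against wild type, and Drd5 turned to 0.020 in GFP against wild type; Ahcy lost its call in both rd10 comparisons and Drd1a and Enpp1 against GFP. Same-numbered libraries correlated at -0.37 to 0.36, so the numbers are no pairing. Ddc, Enpp1 and Acpp have no value at a minimum count of 30. With no division by exon length, Drd4 held 71.3%, 9.63% and 69.8% of the dopamine receptor level in wild type, rd10 and GFP, an alternative chosen after seeing the data.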
